A study of Homo sapiens with 12 samples.

Results

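The histone and DNA modifying enzymes were followed in differentiating SH-SY5Y cells that had been exposed to hydrogen peroxide (H2O2). Members were taken by symbol, as KMT2A to KMT2E, the KDM, SETD, HDAC, TET, DNMT, EHMT, EZH, PRDM, PRMT and SMYD genes. A total of 84 of the 55765 counted gene symbols met this rule, after 3 antisense or intronic transcripts and KDM5D had been left out. SH-SY5Y is a neuroblastoma line subcloned from SK-N-SH, and all 12 libraries came from cells given all-trans retinoic acid (ATRA) for 7 days, which drives them towards a neuron-like state. In the co-treatment experiment, 3 control samples received ATRA and 3 treated samples received ATRA and H2O2 together throughout. In the pre-treatment experiment, 3 control samples were untreated before ATRA and 3 treated samples were given H2O2 for 72 h before ATRA was added. The dose of H2O2 carries the number 10, with mM in the design text and μM in the methods, and which unit holds could not be settled from the counts. The line is a single tumour-derived clone. No label says whether replicates were separate cultures, so p-values measure only the spread between these libraries, which may be technical.

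These enzymes write and erase the chemical marks that set how chromatin is read. The KMT2 and SETD1 proteins, apart from KMT2E, are the large catalytic subunits of the complexes that methylate lysine 4 of histone H3 (H3K4), a mark of active promoters and enhancers. KMT2E is counted with them by name. By contrast, EZH1 and EZH2 place the repressive H3K27 mark and the SETDB and EHMT proteins place H3K9 methylation. KDM proteins remove lysine methylation, HDACs remove acetyl groups, PRMTs methylate arginine, DNMTs methylate cytosine in DNA, and TET dioxygenases oxidise that methyl group. Several of these genes, among them KMT2 members and EHMT1, are mutated in human neurodevelopmental disorders, and the KDM and TET enzymes need iron and oxoglutarate for catalysis, except for KDM1A and KDM1B, which use a flavin.

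The libraries held 27576276 to 98287391 counted reads, of which 163589 to 493743 fell on the members. Pre-treatment control replicates 1 and 2 stood apart from the other 10 libraries. Members took 0.831% and 0.858% of the reads in these libraries, against 0.473% to 0.647% in all others, and pre-treatment control replicate 3 was the lowest of the 12. In that pair, small structured RNAs made up 1.56% and 2.84% of the reads on genes, whereas control replicate 3 had 17.5% and the pre-treated libraries had 13.1% to 14.9%. The pair also had 0.800 and 0.830 reads outside annotated genes for each counted read, with 0.200 for control replicate 3 and 0.343 to 0.462 for the pre-treated libraries. Because of this, the pre-treatment comparison is given both with control replicates 1 and 2 only, the controls labelled in the picture of the study's clustering (5 libraries), and with all 6 libraries. Which controls entered the authors' own test is not stated. All 6 noradrenergic markers listed were present in every library, but their levels moved. HAND2 lay between 307 and 564 CPM (counts scaled to library size), GATA3 between 24.9 and 118 CPM and DBH, which makes noradrenaline, between 125 and 1074 CPM. Against control replicates 1 and 2, 3 of the 6 were called lower and 1 higher after pre-treatment. The 6 together summed to 1339 to 2171 CPM in the pre-treatment controls and to 978 to 1341 CPM in the pre-treated libraries. The 5 glial markers stayed at or below 2.69 CPM. Of the 5 fibroblast markers, COL1A2 stayed at or below 0.253 CPM and PDGFRB lay between 81.6 and 171 CPM, with 1 of the 5 called lower and 1 higher in the same comparison. The part of these markers in the results below was not tested.

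Promoter sequences are shown for KMT2D, KMT2B and SETD1A, since the H3K4 methyltransferases had the largest median fold change of the 11 classes after pre-treatment. The sequences are the 250 bases before the RefSeq transcription start on GRCh38.p14, written 5′ to 3′ on the strand of the gene, with GC boxes (GGGCGG or its complement CCGCCC, the letters bound by SP and KLF factors) in capitals. They lie at chr12:49060795-49061044 (minus strand), chr19:35717753-35718002 (plus strand) and chr16:30957504-30957753 (plus strand).
KMT2D: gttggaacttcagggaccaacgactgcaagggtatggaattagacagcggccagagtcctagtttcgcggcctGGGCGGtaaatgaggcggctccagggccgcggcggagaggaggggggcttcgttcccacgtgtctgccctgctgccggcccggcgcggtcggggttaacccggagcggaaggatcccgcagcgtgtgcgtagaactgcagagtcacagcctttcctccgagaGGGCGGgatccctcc
KMT2B: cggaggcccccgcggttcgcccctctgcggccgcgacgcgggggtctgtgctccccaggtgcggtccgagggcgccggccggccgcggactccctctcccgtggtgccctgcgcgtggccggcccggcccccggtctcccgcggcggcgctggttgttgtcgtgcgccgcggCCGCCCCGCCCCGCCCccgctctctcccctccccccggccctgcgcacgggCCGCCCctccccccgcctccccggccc
SETD1A: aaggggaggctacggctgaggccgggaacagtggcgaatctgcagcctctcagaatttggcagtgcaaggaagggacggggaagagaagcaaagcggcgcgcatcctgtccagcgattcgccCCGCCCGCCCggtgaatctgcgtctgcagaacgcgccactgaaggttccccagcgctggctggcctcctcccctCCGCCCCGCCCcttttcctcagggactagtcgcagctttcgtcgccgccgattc

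The KMT2D window held 2 GC boxes, and those of KMT2B and SETD1A held 4 each. SETD1B had no promoter among the sequences used. A GC box was found in all 6 KMT2 and SETD1 promoters available, in 60.8% of 120 promoters of 76 member genes and in 42.6% of all 35116 promoters. For members called after pre-treatment against control replicates 1 and 2, it was in 63.3% of promoters of the lower and 91.7% of the higher ones. The CCAAT box was in 0 of the 6, against 32.0% of all promoters. The retinoid receptor half-site AGGTCA was in 0 of the 6 and 12.1% of all promoters, and the core of the antioxidant response element, TGACNNNGC, was in 1 of the 6, that of KMT2D, and 10.9% of all. Each motif was searched on both strands and matches could overlap. A match of letters is a description and not a bound site.

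Most of the enzymes were expressed. The counts allowed 72 of the 84 members to be tested, each of them above the filter in all 12 libraries. Per kilobase of transcript and averaged over the 12 libraries, the arginine methyltransferase PRMT1 had the highest level of its class at 113 CPM per kb, followed in the other classes by SMYD2 at 59.1, the flavin-dependent demethylase KDM1A at 55.2 and HDAC3 at 39.2 CPM per kb. SETD3, the histidine methyltransferase of actin, led the other SETD genes at 32.1 CPM per kb, SETDB1 the H3K9 enzymes at 29.8, EZH2 the H3K27 enzymes at 25.6 and the de novo enzyme DNMT3A the DNA methyltransferases at 21.8 CPM per kb. PRDM4 at 14.5, KMT2C at 14.4 and TET2 at 10.8 CPM per kb were the highest of the PRDM, H3K4 and TET classes. The range over libraries was narrow for SETDB1, at 26.1 to 33.6 CPM per kb, and wide for KMT2C, at 7.75 to 29.0 CPM per kb.

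The 12 members not tested had at most 61 reads each over all libraries. PRDM7 had 61 reads, PRDM1 39, PRDM12 17, PRDM16 14, PRMT8 13 and KDM4E 11, and PRDM13, SMYD1, PRDM9 and DNMT3L had 7, 4, 2 and 1. PRDM14, a germline and pluripotency factor, and EHMT2, the partner of EHMT1 in H3K9 methylation, were listed at 0 in every library. Over the gene-dense part of chromosome 6 that holds EHMT2 (hg19, 31847536 to 31865475), the widely used genes RPS18 and TUBB were at 0 and 6 reads, so that the 0 of EHMT2 is given only as listed.

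Co-treatment with H2O2 left the modifying enzymes close to their control levels. At a false discovery rate (FDR) below 0.05 in edgeR's quasi-likelihood test, 0 of the 72 members were called, against a background of 0.335% of the 22089 tested genes called higher and 0.263% called lower. At an unadjusted p below 0.05, 5 members were found, namely PRDM8, KDM4C, PRMT3, SETD7 and DNMT3A, all with a lower mean in the treated cells. These were 6.94% of the members, against 8.15% of all genes at that threshold. The median log2 fold change (log2FC) over the members was -0.02, against 0.00 for all genes tested.

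PRDM8, a repressor of the developing nervous system, had the smallest p. Its level was 11.1, 10.5 and 10.9 CPM in the co-treatment controls and 5.04, 6.89 and 6.68 CPM in the treated libraries. All 3 treated libraries lay below all 3 controls, and log2FC was -0.80 ± 0.17 (SE) with an FDR of 0.0731. The call depended on the test, since PRDM8 passed with edgeR's exact test, with DESeq2 and with no filter on low counts, at FDRs of 0.00829, 0.00269 and 0.00612. In the pre-treatment experiment PRDM8 stayed between 9.67 and 11.6 CPM in all 6 libraries. The direct test of the difference between the experiments gave 0.78 ± 0.24 (log2, pre minus co) with an FDR of 0.0558, so the contrast between them missed the threshold too.

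The next 3 members by p missed the FDR by far. KDM4C, a demethylase of H3K9 and H3K36, had 38.2, 39.6 and 41.8 CPM in controls and 30.7, 32.9 and 27.9 CPM after co-treatment (log2FC -0.39, FDR 0.319). PRMT3, which methylates a ribosomal protein, had 22.4, 24.1 and 23.6 CPM against 17.7, 18.9 and 19.1 CPM (log2FC -0.33, FDR 0.468). SETD7, a monomethyltransferase, had 37.1, 35.3 and 39.3 CPM against 34.1, 27 and 26 CPM (log2FC -0.36, FDR 0.470). In each of the 3 the groups did not overlap, but the 3 were picked by their p. The share of all genes without overlap was not counted. On the positive side SMYD5, PRMT5, SETD9 and DNMT3B had the smallest p, with log2FC from 0.17 to 0.24 and FDRs from 0.736 to 0.864. All 11 HDACs and all 3 TET genes had a log2FC below 0 after co-treatment, the largest drop being that of HDAC7 at -0.30, and all 14 were far from the threshold, with FDRs of 0.732 or more. Of the protein-coding genes tested, 46.8% had a log2FC above 0. The 6 noradrenergic markers and the 8 Polycomb repressive complex 2 subunits tested were all below 0 too. With scaling by library size alone, HDAC1, HDAC4, HDAC8 and TET2 turned positive, the first and last of them with a log2FC of 0.01.

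Pre-treatment gave a different picture when set against control replicates 1 and 2. Of the 72 members tested, 36 were called, 27 lower and 9 higher. The background was 12.8% of 26350 genes called lower and 13.2% called higher. The median log2FC was -0.12 over the members and 0.01 over all genes. When a call also needed an absolute log2FC above 1, 13 members were lower and 0 higher, with 8.23% of all genes lower and 2.98% higher under that rule. With scaling by library size alone, which moved the median of all genes from 0.01 to -0.21, the split became 30 lower and 4 higher. The share of all genes called under that scaling is not given here. Leaving out control replicate 2 reduced the count to 16, and leaving out treated replicate 1 to 22. In bulk RNA, fewer cells of a type and less RNA per cell cannot be told apart.

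**Figure D1:**
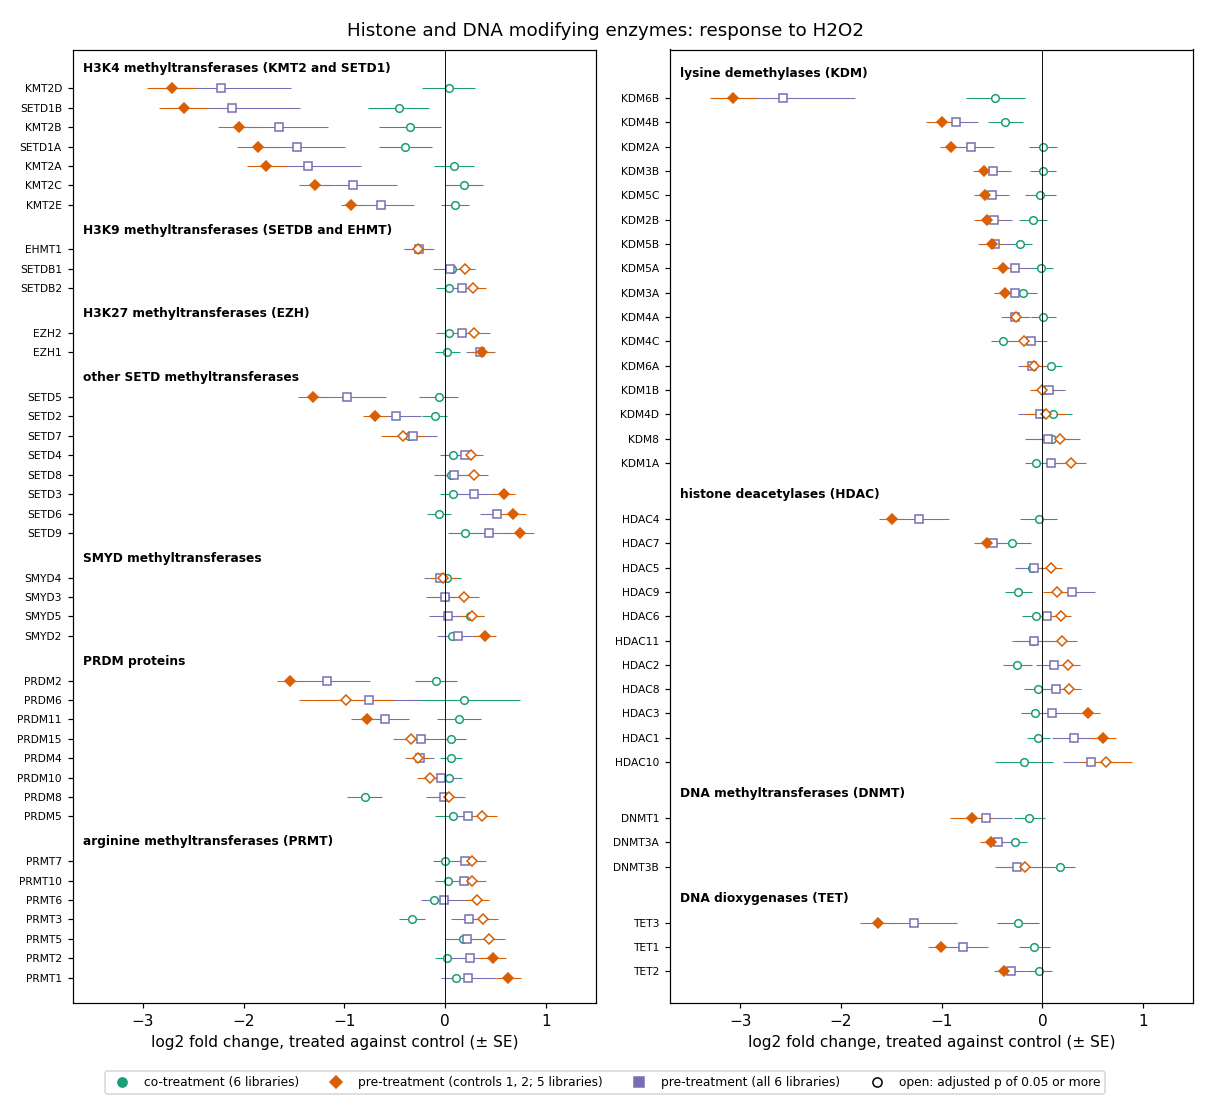
Log2 fold change (treated against control, with SE) of the 72 tested members, grouped by enzyme class, for co-treatment (circles), pre-treatment against control replicates 1 and 2 (diamonds) and pre-treatment with all 6 libraries (squares), where filled symbols have an FDR below 0.05. Filled symbols occur only among the diamonds, and all 7 KMT2 and SETD1 genes lie to the left of 0 there, from -0.93 to -2.72.

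The H3K4 methyltransferases carried the largest class-wide drop. All 7 KMT2 and SETD1 genes were lower after pre-treatment than in control replicates 1 and 2, with a median log2FC of -1.86. The class summed to 1516 and 1633 CPM in these controls and to 400, 496 and 594 CPM in the treated libraries. Control replicate 3 had 367 CPM, the lowest sum of the 12 libraries. The co-treatment libraries ranged from 433 to 718 CPM in controls and from 484 to 642 CPM in treated cells.

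KMT2D, which methylates H3K4 at enhancers (hg19 chromosome 12, 49412758 to 49454577), moved the most of the class. It had 275 and 336 CPM in control replicates 1 and 2 and 30.7, 46.0 and 60.4 CPM in the pre-treated libraries, a 6.57-fold lower level (log2FC -2.72 ± 0.24, FDR 0.000903). Control replicate 3, at 33.0 CPM, lay among the treated libraries. In the co-treatment experiment KMT2D had 75.2, 35.5 and 37.4 CPM in controls and 38.1, 50.7 and 62.8 CPM in treated libraries, which overlapped (log2FC 0.03). The promoter of this gene, shown above, was the only one of the 6 with the antioxidant response element letters, which 10.9% of all promoters held.

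SETD1B and SETD1A are the catalytic subunits of the complexes that place most H3K4 trimethylation. SETD1B (hg19 chromosome 12, 122241915 to 122270562) had 29.7 and 46.1 CPM in control replicates 1 and 2, 4.5 CPM in control replicate 3 and 4.60, 6.48 and 7.36 CPM after pre-treatment (log2FC -2.60 ± 0.24, FDR 0.000981). SETD1A (hg19 chromosome 16, 30968615 to 30995985) had 40.6 and 52.8 CPM, then 12.1 CPM, and 9.38, 13.3 and 15.3 CPM (log2FC -1.86 ± 0.21, FDR 0.00141). For both genes the first 2 controls were clear of every other pre-treatment library, while control replicate 3 lay among the treated libraries for SETD1A and just below them for SETD1B.

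KMT2B, a methyltransferase of promoters (hg19 chromosome 19, 36208875 to 36229781), had 57.5 and 82.9 CPM in control replicates 1 and 2, 17.1 CPM in control replicate 3 and 13, 17.6 and 19.5 CPM after pre-treatment (log2FC -2.05 ± 0.21, FDR 0.00103). KMT2A, which is rearranged in acute leukaemias (hg19 chromosome 11, 118307171 to 118397547), had 444 and 470 CPM, then 95.1 CPM, and 99.5, 125 and 169 CPM (log2FC -1.78 ± 0.20, FDR 0.00125). Its treated libraries lay below the first 2 controls and above the third. KMT2C, the paralogue of KMT2D, had a log2FC of -1.29 ± 0.16 (FDR 0.00165). KMT2E, which lacks clear methyltransferase activity, had the smallest drop at -0.93 ± 0.11 (FDR 0.00145). Control replicate 3 lay below every treated library for KMT2C and KMT2E, at 131 and 74.2 CPM. All 7 calls held with any 1 of the 5 libraries left out.

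**Figure D2:**
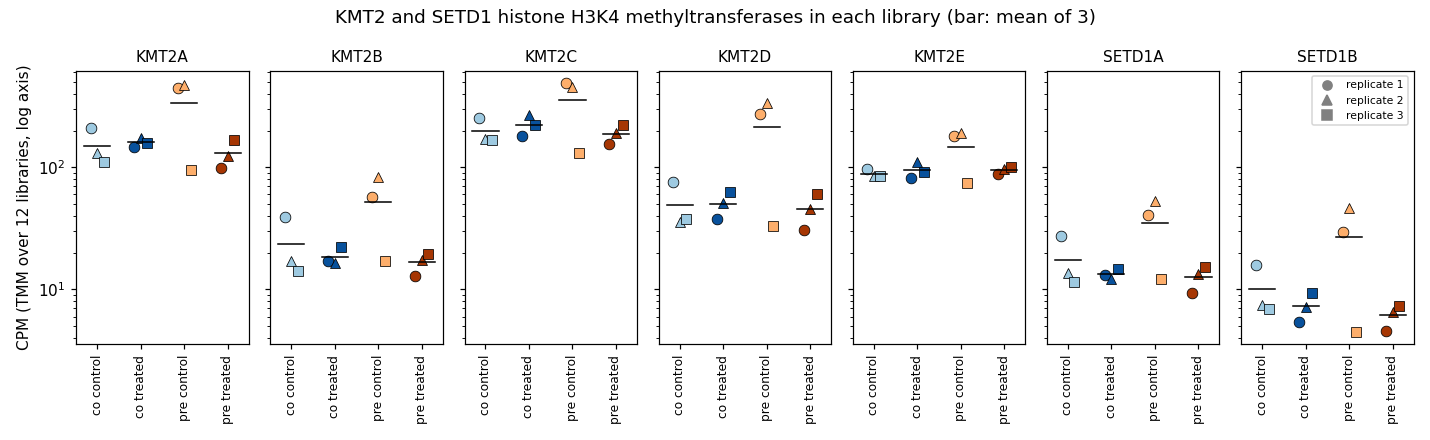
CPM (log axis, TMM-scaled over 12 libraries) of the 7 KMT2 and SETD1 genes in each library, by group, with marker shape for the replicate and a bar for the mean of 3. Pre-treatment control replicates 1 and 2 lie above all other libraries for each gene, for example at 275 and 336 CPM for KMT2D, while control replicate 3 (33.0 CPM) lies with the treated libraries.

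The largest drop of any member was in KDM6B, the H3K27 demethylase also known as JMJD3, with known roles in inflammation and neuronal differentiation (hg19 chromosome 17, 7737535 to 7758114). KDM6B had 92.1 and 147 CPM in control replicates 1 and 2 and 10.6, 14.9 and 16.5 CPM after pre-treatment (log2FC -3.07 ± 0.23, FDR 0.000814). Control replicate 3 had 12.4 CPM and overlapped the treated libraries. In co-treatment, KDM6B had 34.2 CPM in control replicate 1 but 13.8 and 14.1 CPM in the other controls and 13.6, 14.2 and 17.1 CPM in treated libraries. Its paralogue KDM6A, from 58.3 to 70.5 CPM over the 12 libraries, was not called.

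Of the 16 KDM genes tested, 9 were lower and 0 higher after pre-treatment against control replicates 1 and 2. The H3K9 and H3K36 demethylase KDM4B had 65.1 and 92.1 CPM in these controls, 52.9 CPM in control replicate 3 and 36, 40.6 and 38.9 CPM after pre-treatment (log2FC -1.0 ± 0.15, FDR 0.00406). KDM4B was thus below all 3 controls in all 3 treated libraries. KDM2A, which acts on H3K36 and binds unmethylated CpG islands, had 111, 125 and 67.9 CPM in the 3 controls and 58.2, 61.0 and 66.1 CPM after pre-treatment (log2FC -0.91 ± 0.11, FDR 0.00191). The remaining calls were KDM2B, KDM3A, KDM3B, KDM5A, KDM5B and KDM5C, with log2FC from -0.37 to -0.58. KDM5C, an H3K4 demethylase of the X chromosome linked to intellectual disability, had 240, 274 and 209 CPM in controls and 163, 172 and 176 CPM after pre-treatment (log2FC -0.57, FDR 0.00925), again without overlap of the groups. KDM5B, at 508, 563 and 468 CPM in controls and 381, 384 and 345 CPM after pre-treatment, showed the same order of libraries. The share of all genes without overlap of the groups was not counted, for these members or for those named below.

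All 3 TET genes were lower after pre-treatment. TET3, known from the zygote and from neurons, had 173 and 195 CPM in control replicates 1 and 2, 55.8 CPM in control replicate 3 and 45.1, 57.9 and 71.9 CPM after pre-treatment (log2FC -1.63 ± 0.18, FDR 0.00121). TET1 had 120, 131 and 67.5 CPM in controls and 55.9, 58.7 and 69.7 CPM after pre-treatment (log2FC -1.01 ± 0.13, FDR 0.00192). In both genes 1 treated library or more was above control replicate 3. TET2 moved least, from 128, 131 and 104 CPM to 99.6, 99.7 and 93.1 CPM (log2FC -0.38 ± 0.10, FDR 0.0281), and its 3 treated libraries lay below all 3 controls.

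Of the 3 DNMTs tested, 2 were lower as well. The de novo methyltransferase DNMT3A had 229, 253 and 196 CPM in controls and 166, 165 and 167 CPM after pre-treatment (log2FC -0.51 ± 0.11, FDR 0.0116), with no overlap. The maintenance methyltransferase DNMT1, which is tied to DNA replication, had 152, 179 and 110 CPM in controls and 78.9, 87.1 and 134 CPM after pre-treatment (log2FC -0.70 ± 0.21, FDR 0.0413). Its call was lost with 4 of the 5 libraries left out in turn. The summed level of 14 cell division genes was 1286, 1213 and 2286 CPM in the same treated libraries and 1861 to 2057 CPM in the controls, so that treated replicate 3 was the highest of the treated libraries in both. The part of cell division in the DNMT1 result was not tested.

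The HDACs did not move as a class, with 2 lower, 2 higher and 7 not called after pre-treatment against control replicates 1 and 2. HDAC4, a class IIa deacetylase that shuttles between cytoplasm and nucleus in neurons (hg19 chromosome 2, 239969864 to 240323348), had 79.0 and 98.4 CPM in control replicates 1 and 2, 40.1 CPM in control replicate 3 and 28.2, 33.4 and 31.2 CPM after pre-treatment (log2FC -1.49 ± 0.13, FDR 0.000903). All 3 treated libraries were below all 3 controls. HDAC7, of the same class, had a log2FC of -0.55 (FDR 0.0175). In the other direction, HDAC1 had 48.0 and 44.7 CPM in control replicates 1 and 2 and 74.8, 71.1 and 60.8 CPM after pre-treatment (log2FC 0.60 ± 0.13, FDR 0.0131), but 73.6 CPM in control replicate 3. HDAC3, a class I deacetylase, was likewise higher (log2FC 0.46, FDR 0.0257), with control replicate 3 at 95 CPM, above every treated library.

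The members that rose were of moderate fold. SETD9, a little-studied SET domain protein (hg19 chromosome 5, 56205087 to 56221359), had 14.5 CPM in each of control replicates 1 and 2, 24.0 CPM in control replicate 3 and 23.4, 22.3 and 25.8 CPM after pre-treatment (log2FC 0.74 ± 0.14, FDR 0.00830). SETD6, which methylates the RELA subunit of NF-κB, had 32.3, 27.7 and 38.4 CPM in controls and 48.2, 44.6 and 47.9 CPM after pre-treatment (log2FC 0.67 ± 0.13, FDR 0.00847). EZH1, the H3K27 methyltransferase of non-dividing cells, had 43.0, 43.5 and 42.3 CPM in controls and 54.7, 54.5 and 55.0 CPM after pre-treatment (log2FC 0.37 ± 0.11, FDR 0.0390). For SETD6 and EZH1 every treated library lay above every control, control replicate 3 included, and no other called riser had its treated mean above that control. Both were chosen among the called members, and the share of all genes without overlap was not counted.

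Against control replicates 1 and 2, all 7 tested PRMTs had a log2FC above 0 under every scaling used, from 0.26 to 0.63 with TMM, as had 60.6% of all protein-coding genes tested, and 2 were called, PRMT1 and PRMT2. With all 6 libraries PRMT6 was at -0.01. Set against control replicate 3 alone, the treated mean was lower for PRMT1, PRMT2, PRMT5 and PRMT6, by up to 0.46 on the log2 scale for PRMT6. PRMT1, which makes most asymmetric dimethylarginine in cells, had 125 and 135 CPM in control replicates 1 and 2, 244 CPM in control replicate 3 and 199, 178 and 215 CPM after pre-treatment (log2FC 0.63 ± 0.12, FDR 0.00951). The treated libraries thus lay between the 2 sets of controls. SETD3 and SMYD2 were the other members called higher, at log2FC 0.58 and 0.39. Of the calls towards a higher level, 0 of 9 held with any 1 library left out, since all 9 were lost without control replicate 2.

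Among the PRDM and other SETD genes, PRDM2, PRDM11, SETD2 and SETD5 were lower. PRDM2, a tumour suppressor that methylates H3K9 (hg19 chromosome 1, 14026683 to 14151574), had 80.1 and 94.3 CPM in control replicates 1 and 2, 24.8 CPM in control replicate 3 and 26.8, 28.8 and 32.7 CPM after pre-treatment (log2FC -1.54 ± 0.13, FDR 0.000903). SETD5, a chromatin regulator mutated in intellectual disability (hg19 chromosome 3, 9439299 to 9520924), had 206, 242 and 74.5 CPM in controls and 75.3, 87.9 and 102 CPM after pre-treatment (log2FC -1.31 ± 0.15, FDR 0.00127). In both genes all treated libraries were above control replicate 3. SETD2, which trimethylates H3K36, was lower too (log2FC -0.70, FDR 0.00560), as was PRDM11 (log2FC -0.77, FDR 0.0119). Control replicate 3 lay below every treated library for SETD2, at 108 CPM, and among them for PRDM11. None of the 3 tested H3K9 enzymes of the SETDB and EHMT class was called, by the quasi-likelihood test, and 1 of them, EHMT1, had an unadjusted p below 0.05.

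**Figure D3:**
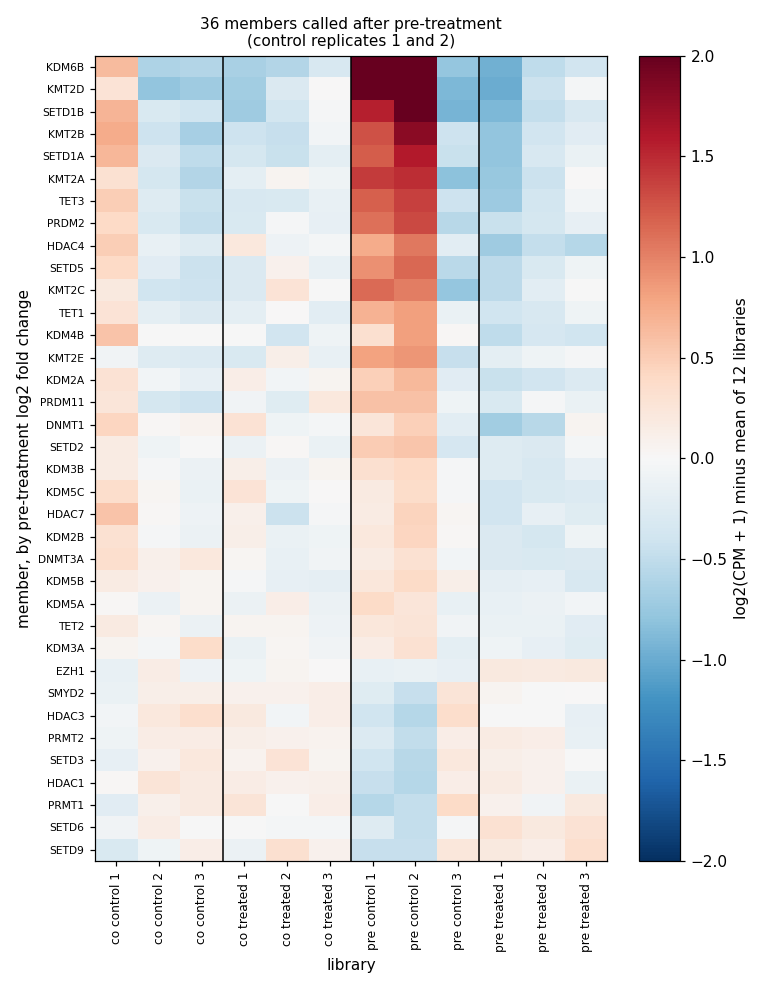
Level of the 36 members called after pre-treatment against control replicates 1 and 2, as log2(CPM + 1) minus the mean of the 12 libraries, with members in rows ordered by fold change and libraries in columns. Pre-treatment control replicates 1 and 2 are both above the other 10 libraries (towards red) for 20 of the 27 lower members. They are both below the other 10 (towards blue) for 8 of the 9 higher members. Control replicate 3 mostly resembles the treated libraries.

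The pre-treatment calls rested on control replicates 1 and 2. With all 6 libraries, 0 of 72 members were called by the quasi-likelihood test and 22 had an unadjusted p below 0.05, against a background of 0.0242% of 24743 genes called higher and 0% called lower. At the unadjusted threshold the members' share was 30.6%, and that of all genes 11.2%. The exact test called 2 members (HDAC4 and KDM6B) and DESeq2 called 5 (HDAC4, KDM4B, KMT2B, SETD1A and SETD1B). No filter on low counts gave 5 (HDAC4, KDM6B, KMT2B, KMT2D and SETD1B) and limma-voom called 0. All of these calls were lower. The background above is that of the main quasi-likelihood test, and the shares of all genes called under these alternatives are not given here. All 27 members called lower and all 9 called higher kept their sign with the 6 libraries. As 5 of these libraries had given the calls, the kept signs are no separate support. For KMT2D the log2FC was -2.23 ± 0.70 (FDR 0.322) and for KDM6B -2.58 ± 0.72 (FDR 0.320), so the fold stayed large while its error grew. On the positive side SETD6 and EZH1 had the smallest p, at log2FC 0.52 (FDR 0.338) and 0.35 (FDR 0.408).

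On the log2 CPM scale, control replicate 3 lay nearer to the treated mean than to the mean of the other controls for 32 of the 36 called members (88.9%), and for 87.8% of the 6872 genes called overall. Control replicate 3 lay past the treated mean for 20 of the 36, and for 4189 of the 6872 genes called overall. Control replicates 1 and 2 were both above all 10 other libraries of the series, co-treatment included, for 20 of the 27 lower members (74.1%, against 76.5% of all genes called lower). They were both below all 10 others for 8 of the 9 higher members (88.9%, against 71.7% of all genes called higher). The treated mean was below control replicate 3 for 14 of the 27 lower members and above it for 2 of the 9 higher ones. These shares were not counted over all genes called lower or called higher.

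The experiments were then compared directly, by the difference of the pre-treatment and co-treatment log2FC. Over 11 libraries, without pre-treatment control replicate 3, 19 members differed, 16 with a lower and 3 with a higher value after pre-treatment. The background was 4.7% of 25668 genes lower and 3.32% higher. With scaling by library size alone the split was 21 lower and 0 higher, and the share of all genes called under it is not given here. All 7 KMT2 and SETD1 genes were among the 16, with KMT2D at -2.80 ± 0.42 (FDR 0.00681), KMT2A at -1.92 ± 0.32 (FDR 0.00779) and KMT2E at -1.08 ± 0.18 (FDR 0.00803). KDM6B differed by -2.65 ± 0.44 (FDR 0.00803). The 3 with a higher value were SETD6, PRMT3 and HDAC1, at 0.68, 0.65 and 0.59.

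The calls of 5 members held with any 1 library left out, those of KMT2A, KMT2C, KMT2D, KMT2E and KDM6B. The count fell to 5 without pre-treatment control replicate 2, to 8 without co-treatment control replicate 2, and to 11 without either co-treatment treated replicate 3 or pre-treatment treated replicate 1. Over all 12 libraries 0 members were called and 12 had an unadjusted p below 0.05, with 0.0041% of 24407 genes called lower and 0.0246% called higher. At the unadjusted threshold the shares were 16.7% of the members and 8.94% of all genes. For KMT2D the difference was then -2.31 ± 0.83 (FDR 0.518).

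Genes that work with these enzymes were counted from lists of partners, to be read against the background of 12.8% of all genes called lower and 13.2% called higher. Among 10 acetyltransferases, 5 were lower and 2 higher after pre-treatment against control replicates 1 and 2. The paralogous coactivators EP300 and CREBBP had log2FC of -2.12 ± 0.17 (FDR 0.000837) and -2.15 ± 0.20 (FDR 0.000981). EP300 had 111 and 136 CPM in control replicates 1 and 2, 23.0 CPM in control replicate 3 and 22.7, 28.0 and 33.1 CPM after pre-treatment. Control replicate 3 thus lay within the range of the treated libraries, as for KMT2D.

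Of 10 subunits of the KMT2 and SETD1 complexes, 3 were lower and 2 higher. The transcriptional coregulators HCFC1 (log2FC -2.39) and NCOA6 (log2FC -1.99) fell, as did MEN1 (log2FC -0.61), while the small subunit DPY30 rose from 30.7 and 24.7 CPM to 46.4, 46.1 and 44.4 CPM, with 46.5 CPM in control replicate 3. CXXC1, the CpG-binding subunit of the SETD1 complexes, was called higher as well (log2FC 0.65), but control replicate 3, at 74.7 CPM, lay above every treated library. Of 16 deacetylase corepressor subunits, 6 were lower, among them TBL1X (log2FC -1.08) and SIN3A (log2FC -0.83), and 1 was higher, SAP18 (log2FC 0.92). Control replicate 3 lay among the treated libraries for TBL1X and SIN3A and above them, at 102 CPM, for SAP18. Of 7 sirtuins, the NAD-dependent deacylases, 4 were higher (SIRT2, SIRT4, SIRT5 and SIRT7, log2FC from 0.45 to 1.03) and 0 lower. Control replicate 3 lay above every treated library for SIRT2 and SIRT4 and among them for SIRT5 and SIRT7.

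Of 9 Polycomb repressive complex 2 subunits, 2 were lower (AEBP2 and JARID2) and 1 higher (RBBP7). Control replicate 3 lay above every treated library for RBBP7 and JARID2 and below them for AEBP2. Of 15 other methyltransferases and demethylases, 5 were lower, among them the H3K79 methyltransferase DOT1L (log2FC -1.06) and ASH1L (log2FC -0.84), and 0 were higher. Over all 6 libraries, and in co-treatment, 0 genes of any of these partner lists were called by the quasi-likelihood test. At an unadjusted p below 0.05 the lists held from 0 (sirtuins) to 6 (corepressor subunits) genes with all 6 libraries, where the share of all genes was 11.2%, and from 0 to 2 genes in co-treatment, where it was 8.15%.

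**Figure D4:**
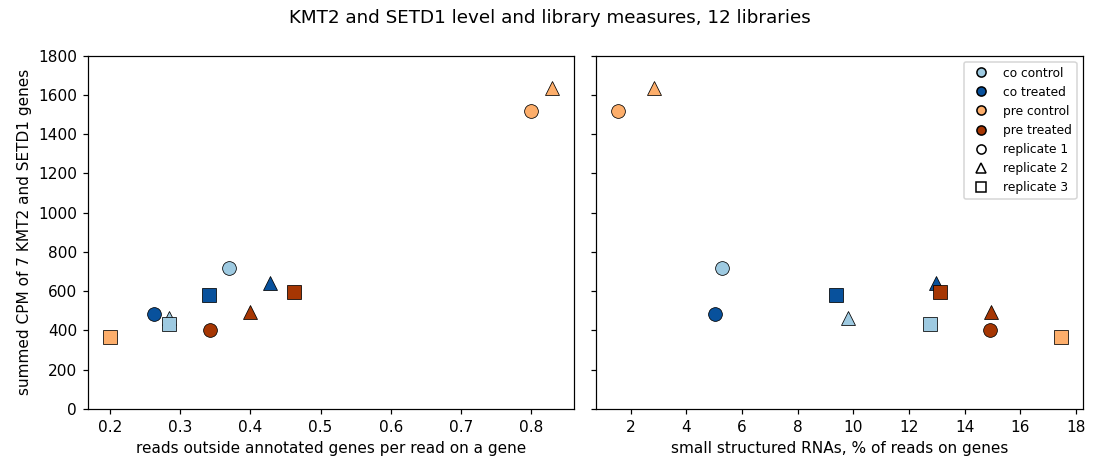
Summed CPM of the 7 KMT2 and SETD1 genes (from 0) in each of the 12 libraries against the reads outside annotated genes per read on a gene (left) and the percentage of reads on small structured RNAs (right), coloured by group, with marker shape for the replicate. Pre-treatment control replicates 1 and 2 lie alone at 1516 and 1633 CPM, with the highest left-hand and lowest right-hand values of the 12, and all other libraries lie between 367 and 718 CPM.

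Within every group, the libraries had the same order by reads outside annotated genes as by KMT2 and SETD1 sum. The order by small structured RNAs did not follow the sums alike in every group. The libraries with the most reads outside annotated genes and the fewest on small structured RNAs, pre-treatment control replicates 1 and 2, were those with the highest KMT2 and SETD1 sums. Within the co-treatment controls, replicate 1 had the highest sum (718 CPM, against 461 and 433 CPM), the most reads outside genes (0.370 per counted read, against 0.285 and 0.284) and the fewest small structured RNA reads (5.28%, against 9.80% and 12.7%). Within the co-treated libraries the order of the small structured RNAs was the other way, since replicate 1 had the lowest sum (484 CPM) with the fewest such reads (5.02%), and replicate 2 had the highest sum (642 CPM) with the most (13%). Their reads outside genes followed the sum, at 0.263 and 0.429 per counted read. In pre-treated replicates 1, 2 and 3 the sums were 400, 496 and 594 CPM. These libraries had 0.343, 0.400 and 0.462 reads outside genes per counted read. Removing the small structured RNA loci before scaling left 35 of the 36 calls. That removal bears only on the weight of those loci in the scaling. The part of these library measures in the results was not tested.

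Transcript length also moved with the response. Across the 72 tested members, Spearman's rho between the length of the longest coding transcript and the log2FC was -0.77 for pre-treatment against control replicates 1 and 2, -0.69 with all 6 libraries and -0.22 for co-treatment. Across all protein-coding genes tested the values were -0.33, -0.22 and -0.07. These are correlations across genes that share the same libraries, and genes are not independent replicates. The 27 lower members had a median length of 8485 bases and the 9 higher ones 2118 bases, with 4370.5 bases for the 36 not called. Without the KMT2 and SETD1 class, rho was -0.74 over 65 members. GC content moved less with the response, with a rho of -0.22 over the 72 members. The part of length in the results was not tested.

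**Figure D5:**
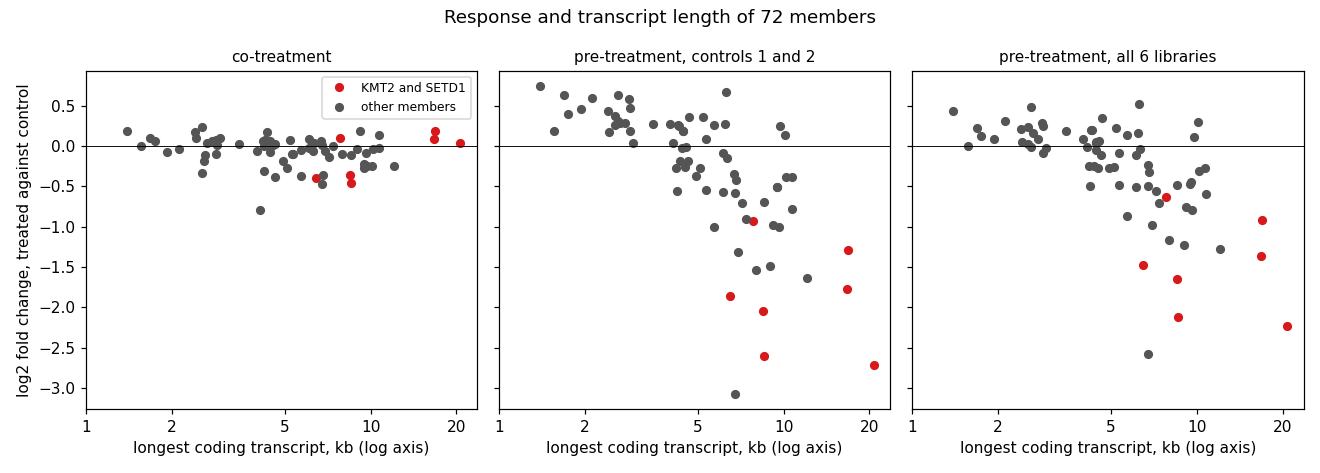
Log2 fold change of the 72 tested members against the length of the longest coding transcript (kb, log axis) for co-treatment, pre-treatment against control replicates 1 and 2, and pre-treatment with all 6 libraries, with the KMT2 and SETD1 genes in red. The points fall with length in both pre-treatment panels (Spearman's rho -0.77 and -0.69) and little in the co-treatment panel (-0.22).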

How the data were processed

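Total RNA of 12 samples was depleted of ribosomal RNA and sequenced from stranded libraries. Per the submitters' processing notes, the authors used FastQC 0.11.8, Cutadapt 2.10, HISAT2 2.1.0 on hg19 and HTSeq 0.7.2, and deposited raw read counts per gene symbol. The strand setting and annotation version are not given in the sources used here. The authors' tables of log2 fold changes, log2 CPM, p-values and FDR were not used.

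The analysis used edgeR 4.0.16 under R 4.3.3 (TMM, quasi-likelihood test, Benjamini-Hochberg FDR below 0.05), after genes under the CPM of 5 counts in the smallest library had been dropped, unless they passed in the number of libraries of the smaller group. limma 3.58.1 and DESeq2 1.42.0 were alternatives. All fits covered all genes. The CPM of each library use 1 TMM scale over 12 libraries. Scripts were tested on simulated data. Depth was 27576276 to 98287391 counts per library, and no replicates were duplicates.

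The members and lists were chosen with earlier results of these data known. Members tracked under every alternative were the 4 with the smallest p per direction and comparison, or the 4 with the smallest p for the difference between experiments. Other members were chosen after their values were seen, and partners were named only where called. Lengths are those of the longest coding transcript (GENCODE lifted to hg19). Promoters come from RefSeq on GRCh38.p14.

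A few genes of the lists are not reported here.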

Additional observations from a re-analysis of the deposited data

Results flagged for a closer look

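The response differed between the experiments for 19 members, by the test of the difference itself over 11 libraries (edgeR's quasi-likelihood test, pre-treatment minus co-treatment log2FC). Among the H3K4 methyltransferases the differences were -2.80 for KMT2D, -2.19 for SETD1B, -1.92 for KMT2A, -1.75 for KMT2B, -1.53 for KMT2C, -1.51 for SETD1A and -1.08 for KMT2E. Among the demethylases they were -2.65 for KDM6B, -0.97 for KDM2A and -0.65 for KDM3B. The DNA dioxygenases TET3 and TET1 differed by -1.44 and -0.98. HDAC4 differed by -1.51, PRDM2 by -1.50, SETD5 by -1.30 and SETD2 by -0.65. The members with a higher value after pre-treatment were SETD6 (0.68), PRMT3 (0.65) and HDAC1 (0.59). For PRMT3 neither experiment alone passed the threshold, with a log2FC of -0.33 in co-treatment and 0.38 after pre-treatment. With pre-treatment control replicate 3 included, all 19 differences kept their sign and 0 were called, the FDRs ranging from 0.511 for HDAC4 and SETD6 to 0.668 for HDAC1. The other 11 libraries had given the 19 calls, so the kept signs are no separate support.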

How the results depend on the processing

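The number of members called in co-treatment rose from 0 to 1 (PRDM8) with no filter on low counts, with the exact test and with DESeq2, and was 0 with any 1 library left out. Against control replicates 1 and 2, the 36 pre-treatment calls became 13 when an absolute log2FC above 1 was required and 16 to 39 with 1 library left out. With all 6 libraries the count of 0 became 5 with no filter, 2 with the exact test and 5 with DESeq2, and 0 to 36 with 1 library left out, the 36 being without control replicate 3. The difference between the experiments gave 19 calls over 11 libraries, 0 over all 12, an alternative chosen after seeing the data, and 5 to 27 with 1 library left out. Scaling, limma-voom and removal of small structured RNAs kept each count within 1.5 times its main value. The shares of all genes called under these alternatives are not given here, so the counts describe the members without a background. No tracked result reversed its sign. Same-numbered replicates did not deviate together (correlations of -0.07 to -0.06 in co-treatment, -0.0027 to 0.0695 with 5 and -0.28 to 0.03 with 6 pre-treatment libraries). For pre-treatment these values cannot decide on pairing, since 2 centred controls mirror each other and control replicate 3 stands apart. The replicate block gave 0 calls in co-treatment, 49 (16 higher, 33 lower) with 5 and 0 with 6 pre-treatment libraries, and 21 for the difference. Leaving out 1 library of a pair of controls leaves a lone control that is assumed to vary like the treated libraries. Annotation and strand setting limit genes with antisense partners.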

Other observations

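EHMT2 was listed at 0 together with its neighbours. Among the 167 protein-coding genes of hg19 chromosome 6 between 29011990 and 33386094, 107 (64.1%) had 0 reads over the 12 libraries, against 7.25% of 19135 protein-coding genes overall. HSPA1A and PSMB9 were at 0. These genes were picked after the 0 of EHMT2 had been seen.

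SETD5-AS1, which is antisense to SETD5 and no member, had 23762 reads over the 12 libraries, or 30.5% of the 77791 reads on SETD5. KDM4A-AS1 had 2.31% of the reads on KDM4A. How reads were divided between these pairs depends on the strand setting, which is not given in the sources used here.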
